A study of Mus musculus with 6 samples.

Results

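In the right hippocampus of sham and BCAS mice, 54752 genes were counted. Among them are genes for receptors of extracellular nucleotides and adenosine and for the surface enzymes that convert one into the other. A set of 9 of these genes is described here. They were chosen by name and matched by the symbol of their Ensembl identifier. They comprise the ion channel receptors for ATP P2rx4 and P2rx7, the G protein-coupled nucleotide receptors P2ry2 and P2ry6, the ectonucleotidases Entpd1 (CD39) and Nt5e (CD73), and the adenosine receptors Adora1, Adora2a and Adora3. All 9 had enough reads to be tested. Both groups were wild-type male C57BL/6 mice (C57BL/6 J in the methods) aged 14 weeks. There was 1 RNA-seq library per mouse, with 3 mice per group. In the BCAS group both common carotid arteries were fitted with microcoils for 3 weeks, the narrower one on the right, and sham mice had the operation without coils. The model lowers blood flow to the whole forebrain, and the counts do not resolve cell types.

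Cells release ATP and UTP when they are active, stressed or damaged. P2X channels open on ATP, whereas P2Y receptors signal through G proteins in response to ATP, ADP, UTP or UDP. CD39 breaks ATP and ADP down to AMP, and CD73 converts AMP into adenosine, which acts on the adenosine receptors. In the hippocampus the A1 receptor is abundant on neurons and dampens transmitter release, while microglia carry P2X4, P2X7, P2Y6, P2Y12 and CD39.

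Libraries held 29652456 to 35607098 counts, and 3 counts, taken as the detection limit, equalled 0.0875 to 0.0995 CPM. CPM are counts per 1000000 counts of the tested genes in a library, after TMM scaling in edgeR. The groups were compared with edgeR's quasi-likelihood test over 18617 genes, and a gene rose or fell where the Benjamini-Hochberg adjusted P was under 0.05. A differentially expressed gene (DEG) also needed an absolute log2 fold change above 1. Markers of neurons, microglia and other hippocampal cells were detected in all libraries. The summed CPM of 5 choroid plexus markers ran from 69.8 to 4080 in sham mice and from 40.3 to 5920 in BCAS mice, with BCAS mouse 2 and sham mouse 3 the lowest. This tissue lies against the hippocampus, and its share in the libraries varied within both groups.

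Among the 9 genes, 6 rose in BCAS mice and 1 fell. The 6 were Adora3, P2ry6, Entpd1, P2rx7, P2rx4 and Adora2a, and the first 5 were up-regulated DEGs. Adora1 fell without reaching the fold change of a DEG, and P2ry2 and Nt5e did not pass the test. Of all tested genes, 18.0% rose, 13.2% fell, 8.47% were up-regulated DEGs and 0.999% were down-regulated DEGs. The median log2 fold change was 1.30 over the 9 genes and 0.018 over all tested genes. In CPM the groups did not overlap for any of the 9 genes, with BCAS mice higher for 8 and lower for Adora1. Among all tested genes the groups lay apart with BCAS higher for 25.3% and with BCAS lower for 22.7%.

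**Figure D1:**
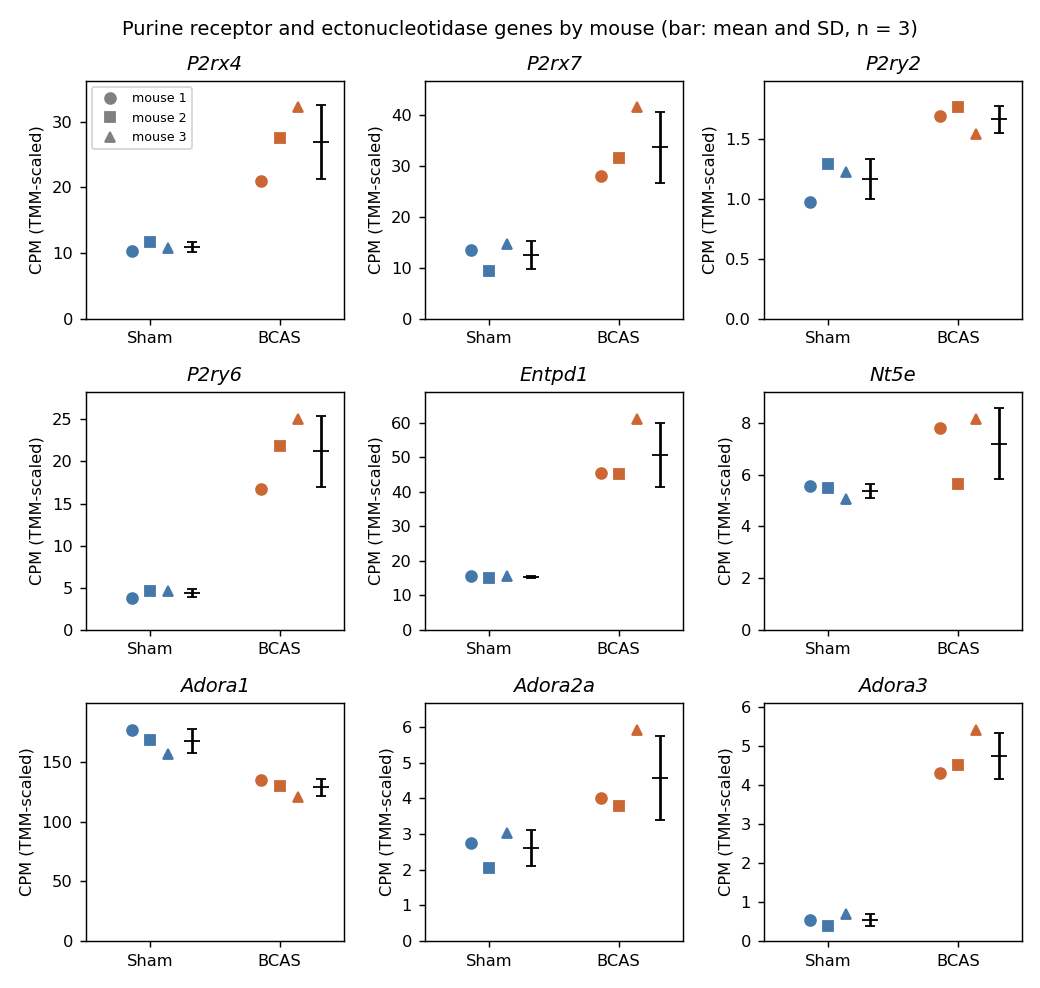
CPM of the 9 genes in each mouse, on linear axes that start at 0. Symbols mark the mice, and bars give the mean and SD of 3 mice. The BCAS mice lie above the sham mice in every panel except that of Adora1, and the gap is smallest for Nt5e, where BCAS mouse 2 (5.64 CPM) is next to sham mouse 1 (5.55 CPM).

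The P2X receptors lie beside each other on chromosome 5 of mm10, with P2rx7 (ENSMUSG00000029468.17, 122643911 to 122691432) and P2rx4 (ENSMUSG00000029470.15, 122707544 to 122729738) separated by 16.1 kb. P2rx7 encodes the channel that needs high ATP and drives interleukin-1 beta release from microglia and macrophages. Its level was 13.4, 9.34 and 14.6 CPM in sham mice 1 to 3 and 28.0, 31.5 and 41.4 CPM in BCAS mice 1 to 3. The lowest BCAS mouse was thus well above the highest sham mouse. P2rx7 rose by 1.43 on the log2 scale (standard error, SE, 0.20, edgeR adjusted P = 0.00090), which is 2.70-fold. P2rx4 encodes a more sensitive ATP channel, known for its up-regulation in spinal microglia after nerve injury. It was measured at 10.3, 11.7 and 10.7 CPM in sham mice and 21.0, 27.6 and 32.2 CPM in BCAS mice. The sham mice lay close together and the BCAS mice were spread more widely, without overlap. P2rx4 rose by 1.30 on the log2 scale (SE 0.16, edgeR adjusted P = 0.000476). Per exon length, sham mice had a ratio of P2rx7 to P2rx4 of 1.36 ± 0.367 and BCAS mice one of 1.47 ± 0.118 (SD, n = 3 each), and the groups overlapped.

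Of the other P2X genes, none of the 4 that could be tested, P2rx1, P2rx3, P2rx5 and P2rx6, passed, and their log2 fold changes ran from -0.25 to 0.20. The 95% interval reached from -0.27 to 0.54 for P2rx6, which had the most reads of the 4, so a rise as large as that of P2rx4 lay outside it. The intervals of P2rx1 (-1.19 to 1.45) and P2rx3 (-1.33 to 0.84) were wide. With 1 mouse left out the log2 fold change turned sign for P2rx1 (-0.31 to 0.73), P2rx3 (-0.93 to 0.13) and P2rx6 (-0.08 to 0.24), so no direction is given for them. P2rx2 had 0 to 10 counts per library and was not tested.

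The P2Y genes P2ry6 (ENSMUSG00000048779.5, 100937630 to 100974649) and P2ry2 (ENSMUSG00000032860.5, 100996568 to 101012866) are neighbours on chromosome 7, 21.9 kb apart. P2ry6 encodes the receptor for UDP, through which microglia take up damaged neurons and debris. It had 3.78, 4.64 and 4.66 CPM in sham mice and 16.7, 21.8 and 25.1 CPM in BCAS mice. Every BCAS mouse was far above the sham range. The rise of P2ry6 was 2.28 on the log2 scale (SE 0.18, edgeR adjusted P = 4.59e-05), or 4.86-fold. P2ry2, the receptor for ATP and UTP, was a gene of few reads, for which the sham libraries held 33, 43 and 42 counts and the BCAS libraries 55, 53 and 48. These counts correspond to 0.974, 1.29 and 1.22 CPM in sham mice and 1.69, 1.76 and 1.54 CPM in BCAS mice. The groups did not overlap, yet the log2 fold change of 0.52 did not pass (95% interval -0.09 to 1.12, edgeR adjusted P = 0.173). Its interval ended below the interval of P2ry6, which was 1.88 to 2.68. Per exon length, P2ry6 exceeded P2ry2 by a factor of 5.12 ± 0.194 in the sham group and 17.5 ± 4.43 in the BCAS group (SD, n = 3 each), without overlap.

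Of 5 other P2Y receptors for nucleotides, 4 were tested and all 4 rose, including 3 up-regulated DEGs. P2ry12, the ADP receptor that guides microglial processes and marks resting microglia, rose by 1.54 on the log2 scale (edgeR adjusted P = 4.26e-05), with means of 46.5 ± 0.720 CPM in the sham and 135 ± 23.9 CPM in the BCAS group (SD, n = 3 each). P2ry13, another ADP receptor, rose by 1.97 (edgeR adjusted P = 5.47e-05), with means of 16.0 ± 0.861 and 62.5 ± 15.0 CPM. P2ry14, the receptor for UDP-glucose, rose by 1.08 and P2ry1 by 0.95 on the log2 scale. P2ry14 was at 0.99 without BCAS mouse 3, where it passed the test but was no DEG. The rise of P2ry1 (edgeR adjusted P = 0.0475) was lost when any 1 of the 6 mice was left out, with log2 fold changes of 0.67 to 1.18 and edgeR adjusted P values of 0.0506 to 0.147. P2ry4 had 6 counts in sham mouse 1 and 0 in the other libraries, and was not tested. Among 6 P2Y receptors, P2ry12 took the largest share of the RPKM, defined as CPM per kilobase of exon. That share was 67.3% ± 0.683 for the sham and 61.1% ± 0.818 for the BCAS group (SD, n = 3 each). P2ry6 went from 5.57% ± 0.618 to 8.49% ± 1.27 and P2ry2 from 1.09% ± 0.151 to 0.501% ± 0.116, in both cases without overlap between groups. With 3 mice per group an exact two-sided permutation test cannot go below P = 0.1, so ratios and shares are given as values without a test.

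The ectonucleotidases differed from each other. Entpd1 (ENSMUSG00000048120.16, chromosome 19, 40612366 to 40741602) encodes CD39, the main surface enzyme of microglia for ATP and ADP. Its level was 15.5, 15.1 and 15.5 CPM in sham mice and 45.3, 45.2 and 61.2 CPM in BCAS mice. The sham mice were nearly identical, and BCAS mouse 3 stood above the other BCAS mice. Entpd1 rose by 1.72 on the log2 scale (SE 0.13, edgeR adjusted P = 4.09e-05), or 3.29-fold. Nt5e (ENSMUSG00000032420.8, chromosome 9, 88327197 to 88372092) encodes CD73, the next enzyme in the chain. It had 5.55, 5.51 and 5.07 CPM in sham mice and 7.82, 5.64 and 8.18 CPM in BCAS mice. BCAS mouse 2 was only just above the sham range, and the other BCAS mice were higher. The log2 fold change of Nt5e was 0.42 (95% interval 0.02 to 0.83) and did not pass after adjustment (edgeR adjusted P = 0.102). Without BCAS mouse 2 it was 0.56 and passed (edgeR adjusted P = 0.026). BCAS mouse 2 was also the library with the fewest choroid plexus reads, and the part of this tissue in the Nt5e values was not tested. The intervals of Entpd1 (1.42 to 2.01) and Nt5e did not overlap. The ratio of Entpd1 to Nt5e per exon length was 4.30, 4.23 and 4.72 in sham mice and 8.94, 12.4 and 11.5 in BCAS mice.

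Of 7 other surface enzymes that act on nucleotides, 3 of the 6 tested rose and none fell. Enpp1, which splits ATP to AMP and pyrophosphate, was the only DEG among them, with a rise of 1.23 on the log2 scale (edgeR adjusted P = 0.00309). Without BCAS mouse 3 its rise was 0.92, below the fold change of a DEG, and still passed the test. Entpd2, which degrades ATP with little action on ADP, rose by 0.74, and Cd38, which consumes NAD, rose by 0.69. Entpd8 had 3 counts in BCAS mouse 1 and 0 in the other libraries, and was not tested.

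Adora1 (ENSMUSG00000042429.8, chromosome 1, 134199223 to 134235431) encodes the A1 receptor, through which adenosine inhibits hippocampal synapses. Its level was 177, 168 and 157 CPM in sham mice and 135, 130 and 121 CPM in BCAS mice. The highest BCAS mouse was below the lowest sham mouse. Adora1 fell by 0.38 on the log2 scale (SE 0.08, edgeR adjusted P = 0.0070), to 0.771 of the sham level. Neuronal markers moved with it, as 4 of 5 fell and their summed level was 5380 to 5750 CPM in sham mice and 3050 to 4340 CPM in BCAS mice, with none at 0. Their part in the fall was not tested. In whole tissue, fewer cells of a type and less RNA per cell cannot be told apart. Of the exon bases of Adora1, 20.1% are shared with Mybph on the opposite strand, and reads on these bases were assigned to neither gene.

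Adora2a (ENSMUSG00000020178.6, chromosome 10, 75316877 to 75334784) encodes an adenosine receptor that raises cyclic AMP and is most abundant in the striatum. It had 2.74, 2.04 and 3.03 CPM in sham mice and 4.0, 3.78 and 5.93 CPM in BCAS mice. BCAS mouse 3 was the highest and the other BCAS mice were closer to the sham range. Adora2a rose by 0.81 on the log2 scale (SE 0.25, edgeR adjusted P = 0.0369). This call was lost when 1 mouse was left out in 4 of 6 cases. The log2 fold change was then 0.85 without sham mouse 1 (edgeR adjusted P = 0.0895), 0.66 without sham mouse 2 (edgeR adjusted P = 0.12), 0.93 without sham mouse 3 (edgeR adjusted P = 0.0619) and 0.57 without BCAS mouse 3 (edgeR adjusted P = 0.125). None of 9 striatal markers rose and 2 fell, Drd2 and Pde10a, with summed levels of 345 to 364 CPM in sham mice and 281 to 336 CPM in BCAS mice. All 4 T cell markers rose, from summed levels of 0.531 to 1.40 CPM to 4.40 to 5.2 CPM, and all 4 endothelial markers were higher in every BCAS mouse, of which 3 passed. Both cell types can carry this receptor. Their part, that of striatal tissue and that of microglia, whose markers also rose, were not tested.

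Adora3 (ENSMUSG00000000562.5, chromosome 3, 105870858 to 105908926) encodes the A3 receptor and showed the largest fold change of the 9 genes. The sham libraries held 18, 13 and 24 counts of it, and the BCAS libraries 140, 136 and 169. The corresponding levels were 0.531, 0.389 and 0.700 CPM in sham mice and 4.31, 4.51 and 5.42 CPM in BCAS mice. All libraries were above the detection limit, and the groups were far apart. Adora3 rose by 3.12 on the log2 scale (SE 0.28, edgeR adjusted P = 8.43e-05), or 8.72-fold. Of its exon bases, 20.9% are shared with Tmigd3, which starts at the same end of the locus and had 2 to 6 counts in every library. Reads on the shared bases were not counted for either gene. Mast cells also express the A3 receptor. Their markers Cpa3, Mcpt4, Tpsb2 and Cma1 had too few counts to be tested. Summed, these markers reached at most 0.236 CPM in sham mice and 0.554 CPM in BCAS mice. Their highest counts were 9 for Cpa3 and 7 for Cma1, both in BCAS mouse 1. The part of mast cells in the rise was not tested.

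The fourth adenosine receptor, Adora2b, rose by 0.86 on the log2 scale (SE 0.18, edgeR adjusted P = 0.00666). Within the family the makeup moved away from Adora1. Its share of the summed RPKM of the 4 receptors was 89.9%, 88.6% and 88.8% in sham mice and 76.4%, 78.0% and 71.1% in BCAS mice. Adora3 took 0.451% ± 0.150 in the sham and 4.30% ± 0.574 in the BCAS group (SD, n = 3 each). Adora2a went from 2.64% ± 0.606 to 5.04% ± 1.32 and Adora2b from 7.81% ± 1.10 to 15.5% ± 1.95, and the groups did not overlap for any of the 4 shares. Adora1 remained by far the most abundant of them in each mouse.

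**Figure D2:**
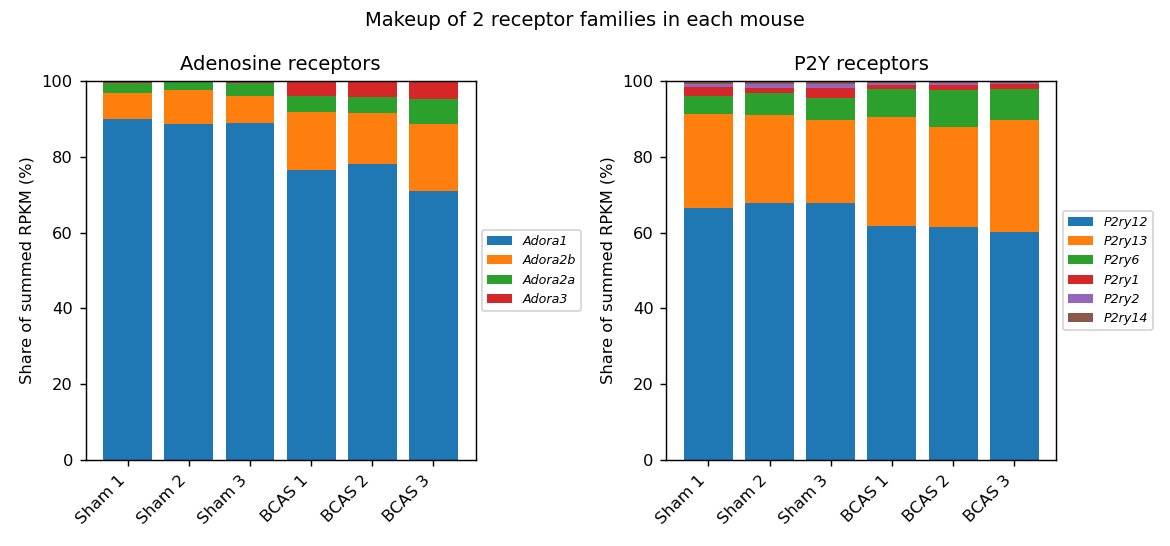
Share of each gene in the summed RPKM of 4 adenosine receptors (left) and of 6 P2Y receptors (right), in percent, with 1 bar per mouse. The Adora1 part of the bar is at least 88.6% in sham mice and at most 78.0% in BCAS mice, and P2ry12 is the largest part of the P2Y bar in every mouse.

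Levels of different genes were compared in RPKM. In sham mice Adora1 was highest with 28.9 ± 1.72 RPKM (SD, n = 3), about 10 times the level of Entpd1 with 2.76 ± 0.0418. P2rx7 (2.09 ± 0.462), P2rx4 (1.55 ± 0.104) and P2ry6 (1.51 ± 0.175) followed, and the range of P2rx4 overlapped with those of P2rx7 and P2ry6. Adora2a (0.850 ± 0.168), Nt5e (0.625 ± 0.0306), P2ry2 (0.296 ± 0.0422) and Adora3 (0.145 ± 0.0417) came last, without overlap between neighbours. In BCAS mice Adora1 was still first with 22.3 ± 1.19 RPKM, followed by Entpd1 (9.07 ± 1.65), P2ry6 (7.35 ± 1.47) and P2rx7 (5.64 ± 1.16). The ranges of Entpd1 and P2ry6 overlapped, as did those of P2ry6 and P2rx7. P2rx4 (3.84 ± 0.802) came next. Adora2a (1.49 ± 0.387) and Adora3 (1.27 ± 0.159) overlapped, and Nt5e (0.838 ± 0.160) and P2ry2 (0.423 ± 0.0286) were lowest. In RPKM Adora3 thus passed Nt5e and P2ry2 in BCAS mice. Without length correction it passed P2ry2 and, by its mean, Adora2a, with 4.75 against 4.57 CPM and overlapping ranges in BCAS mice. It then stayed below Nt5e, which had 7.21 CPM.

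**Figure D3:**
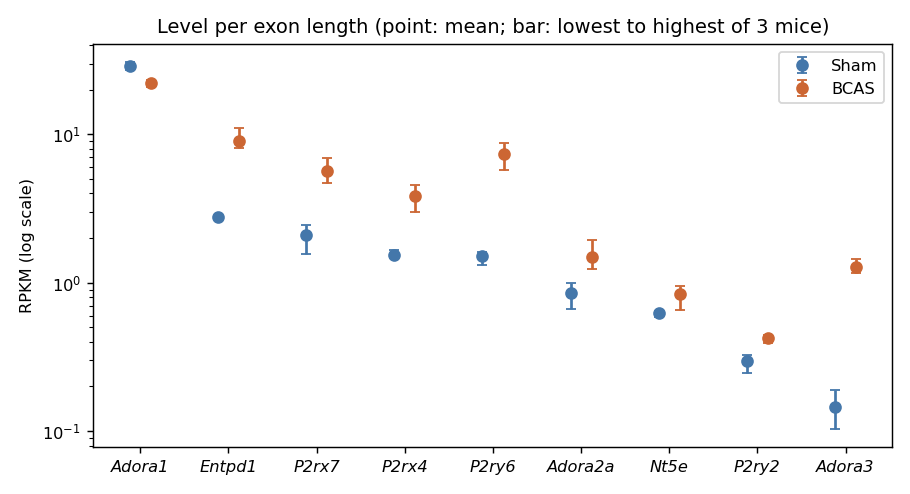
Level of each gene in RPKM on a log axis, with the mean as a point and the lowest and highest of 3 mice as the bar, ordered by the sham mean. Adora1 is first in both groups at 28.9 and 22.3 RPKM, and Adora3 moves from 0.145 to 1.27 RPKM.

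Microglial markers rose together with these genes. All 11 markers of microglia and macrophages were up-regulated DEGs, with log2 fold changes from 1.87 for Sall1 to 4.33 for Trem2 and a median of 3.01. Their summed level was 346 to 365 CPM in sham mice and 2440 to 3980 CPM in BCAS mice, and none was at 0 in either group. All 3 markers of infiltrating monocytes also rose, from at most 0.671 to at least 5.42 CPM in sum. Of 4 markers of border macrophages 2 rose, Mrc1 and Cd163, with sums of 7.33 to 10.1 CPM in sham mice and 16.3 to 22.3 CPM in BCAS mice. Of 5 markers of meningeal fibroblasts 4 rose, with sums of 78.8 to 161 CPM in sham mice and 162 to 276 CPM in BCAS mice, and no marker of either list was at 0 in all mice of a group. The log2 fold changes of P2rx4, P2rx7 and Entpd1 were below those of all 11 markers, while those of P2ry6 and Adora3 were within their range. Set against 1000 CPM of these markers, P2rx4 went from 30.6 ± 2.95 to 9.05 ± 1.24 CPM and Entpd1 from 43.1 ± 0.635 to 17.0 ± 1.6 CPM (SD, n = 3 each). P2rx7 went from 34.7 ± 6.96 to 11.3 ± 0.781 and P2ry6 from 12.2 ± 1.65 to 7.14 ± 1.01 on this scale. Adora3 was the exception, with 1.46, 1.13 and 1.94 CPM per 1000 in sham mice and 1.76, 1.70 and 1.36 in BCAS mice, so that its groups overlapped. The markers rose by unequal amounts, so this scale is not a measure per cell, and the part of cell number and of each of these cell types in the rises was not tested. BCAS mouse 3 had the highest level of all 6 genes that rose and of all 11 markers, as it did for 78.0% of all genes that rose. Without this mouse P2rx4, P2rx7, P2ry6, Entpd1 and Adora3 still passed the test.

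**Figure D4:**
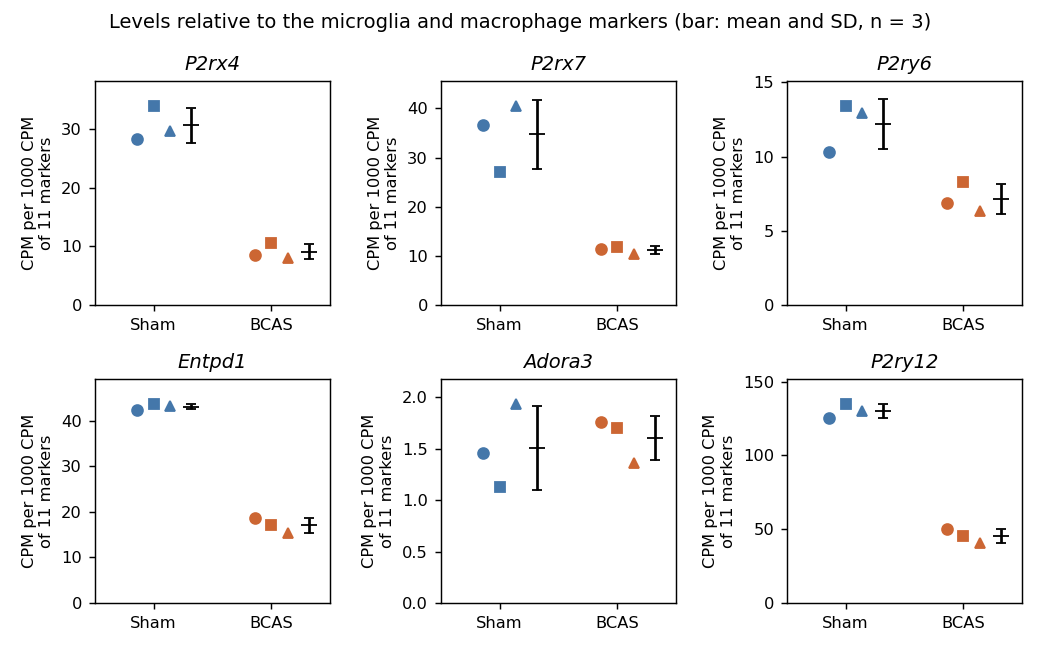
CPM per 1000 CPM of 11 microglia and macrophage markers in each mouse, for the 5 up-regulated DEGs and for P2ry12, on linear axes from 0. Bars give the mean and SD of 3 mice. BCAS mice are below sham mice for every gene shown except Adora3, where the groups overlap.

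Since 5 of these genes rose together with microglial markers, the stretch around their start sites was searched on both strands. The letters searched for were GAGGAAG, a motif of the myeloid factor PU.1. RefSeq promoter sequences of GRCm38.p6, 300 bases long, were found for 7 of the 9 genes, with 11 start sites, and not for P2ry6 and Adora2a. The motif occurred in 3 of the 7 genes, Adora3, Entpd1 and P2rx7, and in 15.4% of 27025 genes with such sequences. Counted by start site it occurred in 3 of 11, and in 13.6% of 32851 over all genes. All 3 start sites with the motif lay inside the annotated gene, including the only one listed for Adora3, and none of the 8 sites at a gene's start held it. P2rx4, which rose, and Adora1, which fell, did not hold these letters. The sequences below run 5′ to 3′ along the gene, from 250 bases before the start site to 30 bases into the transcript, with the motif or its reverse complement CTTCCTC in capitals. Adora3, Entpd1 and P2rx7 are shown for the motif, and P2rx4 and Adora1, whose sites are at the start of the gene, for comparison.
Adora3, chr3:105904171-105904450, plus strand: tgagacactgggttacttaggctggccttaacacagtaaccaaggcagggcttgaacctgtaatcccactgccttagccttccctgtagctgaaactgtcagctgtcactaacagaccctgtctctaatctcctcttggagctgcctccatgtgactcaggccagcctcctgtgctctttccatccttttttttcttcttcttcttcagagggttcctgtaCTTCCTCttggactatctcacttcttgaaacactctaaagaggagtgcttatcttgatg
Entpd1, chr19:40659520-40659799, plus strand: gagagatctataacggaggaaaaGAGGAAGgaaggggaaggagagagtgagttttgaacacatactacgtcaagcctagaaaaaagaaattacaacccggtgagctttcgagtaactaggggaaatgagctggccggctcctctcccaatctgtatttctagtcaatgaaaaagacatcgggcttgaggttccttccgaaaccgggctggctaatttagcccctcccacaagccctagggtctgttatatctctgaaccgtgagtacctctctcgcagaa
P2rx7, chr5:122650133-122650412, plus strand: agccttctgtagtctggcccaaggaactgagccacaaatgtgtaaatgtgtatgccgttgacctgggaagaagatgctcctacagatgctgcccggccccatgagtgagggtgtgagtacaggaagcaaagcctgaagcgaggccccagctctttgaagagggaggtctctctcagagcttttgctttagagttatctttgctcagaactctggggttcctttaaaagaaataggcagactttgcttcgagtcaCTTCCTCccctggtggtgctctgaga
P2rx4, chr5:122707294-122707573, plus strand: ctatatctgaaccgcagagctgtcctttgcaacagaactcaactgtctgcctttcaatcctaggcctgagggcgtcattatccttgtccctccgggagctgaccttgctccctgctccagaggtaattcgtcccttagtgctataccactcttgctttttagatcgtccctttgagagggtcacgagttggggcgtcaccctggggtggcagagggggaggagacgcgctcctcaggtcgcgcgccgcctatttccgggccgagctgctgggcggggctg
Adora1, chr1:134235428-134235707, minus strand: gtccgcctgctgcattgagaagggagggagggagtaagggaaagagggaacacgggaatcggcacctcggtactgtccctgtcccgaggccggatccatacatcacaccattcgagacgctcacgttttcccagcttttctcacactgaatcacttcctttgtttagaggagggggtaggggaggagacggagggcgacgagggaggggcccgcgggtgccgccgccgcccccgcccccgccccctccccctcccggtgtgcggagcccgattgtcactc
The motif lies 29 to 23 bases before the start in Adora3, 227 to 221 bases before it in Entpd1 and 4 to 10 bases after it in P2rx7. The interferon-stimulated response element and the NF-kappa B motif were found in none of the 7 genes, and in 3.99% and 0.466% of all genes. The hypoxia response element ACGTG was found in Adora1 and P2ry2 and in 21.8% of all genes. A match is a description of the letters in this window, and no binding was measured.

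Other genes that handle adenosine or release nucleotides were also followed. With the P2X, P2Y, A2B and surface enzyme genes above, 34 further purinergic genes were listed and 31 could be tested. Of these, 15 rose, 1 fell and 15 did not pass, with a median log2 fold change of 0.59. Among 11 genes of adenosine uptake and metabolism, 5 rose and none fell. Slc29a3, a nucleoside transporter of lysosomes, rose by 1.43 on the log2 scale (edgeR adjusted P = 0.000307), and Pnp, which breaks inosine down, by 1.16 (edgeR adjusted P = 0.00275). Without BCAS mouse 3 Pnp still passed, with a rise of 0.92 that is below the fold change of a DEG. Slc28a2, a concentrative nucleoside transporter, rose by 2.14, with 6, 4 and 2 counts in the sham libraries against 16, 20 and 14 in the BCAS libraries. Its call was lost without sham mouse 2 or sham mouse 3, where the edgeR adjusted P reached 0.0606, and its log2 fold change was 1.82 to 2.54 over the 6 cases of 1 mouse left out. Adk, the kinase that clears adenosine, rose by 0.35 and Dpp4, which binds adenosine deaminase, by 0.79. The call of Dpp4 was lost without sham mouse 1 or 3 or BCAS mouse 2 or 3, where the log2 fold change was as low as 0.57 and the edgeR adjusted P as high as 0.115. Ada, Ahcy, Slc29a1, Slc29a2, Slc29a4 and Slc28a3 did not pass. Of 5 genes of nucleotide release, Slc17a9, the vesicular nucleotide transporter, rose by 1.5 (edgeR adjusted P = 0.00927) and Gja1, the astrocyte connexin 43, by 0.66. All 5 astrocyte markers rose as well, by 0.65 for Slc1a3 to 3.29 for Gfap on the log2 scale, with summed levels of 1170 to 1300 CPM in sham mice and 5030 to 5540 CPM in BCAS mice, and none at 0. Their part in the rise of Gja1 was not tested. Panx2, a pannexin of neurons, fell by 0.36 on the log2 scale from 164 ± 2.32 to 127 ± 8.68 CPM (SD, n = 3 each, edgeR adjusted P = 0.00651). The neuronal markers given beside Adora1 fell with it, 4 of 5, and their part was not tested. Panx1 and Lrrc8a did not pass.

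**Figure D5:**
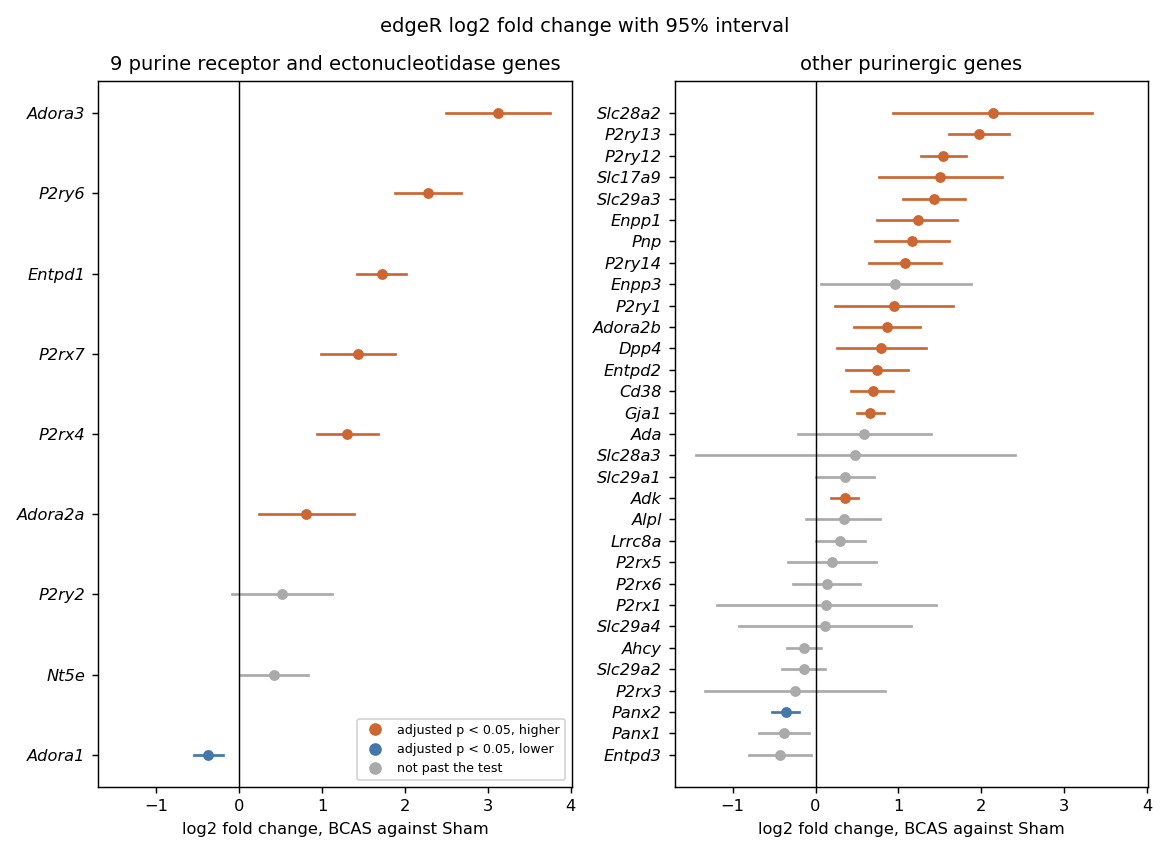
log2 fold change of BCAS against sham mice with its 95% interval from edgeR, for the 9 genes (left) and for 31 other purinergic genes (right). Orange and blue mark an adjusted P under 0.05 with a rise or a fall, and grey marks genes that did not pass; Adora3 has the highest point at 3.12 and Adora1 is below 0 at -0.38.

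Profiles over the 6 libraries were also compared with all tested genes of at least 1 CPM. The measure was the root mean square difference in log2 CPM after each gene was centred on its sham mean, over 15622 genes. The genes closest to Entpd1 were Akna (0.0415) and Zc3hav1 (0.0549). The gene closest to P2rx7 was Tnfrsf11a (0.0484), and those closest to P2rx4 were Man1c1 (0.0763) and Ddx31 (0.0856). P2ry6 was closest to Kcne1l (0.0942) and Psmb9 (0.119). Adora3 was closest to the MHC class II gene H2-Ab1 (0.126) and to AC102342.2 (0.132). With 2 groups this measure mostly reflects the size of the rise and the order of the BCAS mice.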

How the data were processed

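Total RNA of the right hippocampus was sequenced from 3 sham and 3 BCAS mice. According to the methods and the file headers, the authors trimmed reads with Trim Galore, aligned them to mm10 with HISAT2 and deposited raw counts per gene from featureCounts, without normalization. The headers name version 2.0.3 with GENCODE M20 and the submitters' processing notes version 1.6.3. By the header options, each mate was counted on its own without regard to strand, and reads matching several genes or places were left out, so shared exons lower a gene's count. Of 54752 genes, 54723 were matched to a symbol.

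Samples were grouped by title. Counts were filtered with filterByExpr, TMM-normalized and tested with edgeR 4.0.16 in R 4.3.3, with no replicate block. DESeq2 1.42.0 and limma 3.58.1 (voom) were alternatives, as were RLE, library totals, 2 other filters, thinned counts, a replicate block and leaving out each mouse. Standard errors were derived from the F statistic. The detection limit covers counting error only. The steps were tested on simulated data. RPKM used the length column of the count tables. The genes and lists were chosen with earlier results of these data known. Named genes were the 9 genes, other purinergic DEGs, P2ry12, P2ry13, list members where a list is reported, overlapping genes and the 2 closest profiles of each DEG, 1 of which is not reported here. P values weigh the difference between the groups against the spread between these mice.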

Additional observations from a re-analysis of the deposited data

How the results depend on the processing

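Under 14 alternatives per gene, the log2 fold changes of all 9 genes kept their sign, and P2rx4, P2rx7, P2ry6, Entpd1, Adora1 and Adora3 passed and P2ry2 did not pass under each. Their ranges were 1.15 to 1.45 for P2rx4, 1.25 to 1.56 for P2rx7, 2.14 to 2.43 for P2ry6, 1.55 to 1.80 for Entpd1, 2.94 to 3.35 for Adora3, -0.42 to -0.30 for Adora1 and 0.40 to 0.59 for P2ry2. With 1 mouse left out, Adora2a ran from 0.57 to 0.93 and lost its call in 4 of 6 cases, and Nt5e ran from 0.32 to 0.56 and passed in 1. Adjusted P over the alternatives ran from 0.0163 to 0.125 for Adora2a and from 0.026 to 0.268 for Nt5e.

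With the fold change threshold added, 0 of the 9 genes counted as lower, 8 other purinergic genes as higher and 0 as lower, and over all genes 1576 were higher and 186 lower. The number of other purinergic genes that fell was 2 in place of 1 with DESeq2, limma-voom, RLE normalization, a filter at 1 count and thinned counts, and 1 to 2 with 1 mouse left out. The added gene was Panx1, or Entpd3 with thinned counts and without sham mouse 3. Over all genes, 3356 rose and 2463 fell, and with 1 mouse left out 1260 to 3092 fell; the cause was not tested. The lowest counts were 1449, 1412 and 1260 without sham mouse 1, 2 or 3. Library totals moved the median log2 fold change over all genes from 0.018 to 0.095 and the sham level of Entpd1 from 2.76 to 2.68 RPKM. Without length correction, 8 of 18 places in the order of levels changed. The replicate block changed no call among the 9 genes, where Entpd1 had a log2 fold change of 1.70. Same-numbered mice had residual correlations of 0.036, -0.314 and -0.158, which gave no sign that the numbers pair the mice. P2ry2, P2rx1 and P2rx3 had wide intervals and 7 to 78 counts per library, and the parts of depth and of spread between mice were not tested.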
